A study of Homo sapiens with 12 samples.

Results

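The well expressed long noncoding RNAs of WM1366, an NRAS-mutant human melanoma cell line, were followed across the drug-sensitive line and 3 resistant daughter lines. Members were the rows of the deposited gene table with the biotype lncRNA and a mean of at least 500 normalised counts over all 12 libraries. UCA1 and rows within a set stretch of chromosome 2 were to be left out, and this removed 0 rows that met the other criteria. The rule kept 125 of 5223 lncRNA rows, out of 23497 rows in the table. The members were thus chosen by their mean normalised count in these same libraries, so the levels themselves are given as a description, and a member that is high in only 1 line could enter through that line. At least 1 group mean was under 500 in 47 members, and in 2 members only 1 group mean reached 500. The other 78 had all 4 group means at or above 500. The 3 members nearest the limit were NIPBL-DT, GIHCG and CTC-338M12.4, with means of 506, 513 and 516. The 3 lncRNA rows just below it were ENSG00000257732, ENSG00000255980 and ENSG00000268858, with means of 499, 494 and 492.

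The study asked how pairs of a BRAF and a MEK inhibitor act on NRAS-mutant melanoma and what accompanies resistance to them. Sensitive WM1366 cells were kept in DMSO. Encorafenib with binimetinib was given to the EB-resistant line, vemurafenib with cobimetinib to the VC-resistant line and dabrafenib with trametinib to the DT-resistant line, and all cells were seeded 72 h before lysis. Each group held 3 libraries of polyadenylated RNA from independent experiments, numbered 2, 5 and 6. The resistant lines are also called the EB, VC and DT lines here. All 4 groups share the NRAS-mutant WM1366 background. The sources used here give no drug doses. Each resistant state is 1 line, so resistance, the drug present at harvest and the history of the culture cannot be told apart, and p values reflect how far experiments on the same lines scattered.

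Long noncoding RNAs are transcripts that are not translated into a long protein. Some work as RNAs, for example by building nuclear bodies, binding proteins or acting on the gene next to them, while others mainly carry small nucleolar RNAs (snoRNAs) or microRNAs that are cut out of the transcript. Many are transcribed from the same start region as a protein-coding gene, in the opposite direction. Polyadenylated libraries see the spliced, tailed forms. MALAT1 and the long form of NEAT1 end without an ordinary poly(A) tail, so their counts may reflect only part of their RNA.

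The lowest and highest totals per library, 40491309 and 54495132 counts, both belonged to the VC line (replicates 2 and 6), and all 125 members passed the filter on low counts. Of 11 melanocyte markers 7 were among the rows analysed here. MITF, the melanocyte master regulator, lay between 2169 and 3064 normalised counts in the 4 group means, whereas the pigment genes PMEL (17.4 to 34.7), TYRP1 (1.3 to 27.0) and DCT (0.333 to 4.37), and the calcium-binding S100A1 (0.967 to 2.27) were near 0. The surface proteins CSPG4 (3431 to 9845) and MCAM (34139 to 67056) were high, with CSPG4 highest in the VC line and MCAM in the DT line. MLANA, TYR, SOX10 and S100B were not analysed here. The summed level of 4 markers of dedifferentiated melanoma was 107596 in sensitive cells and 59569, 71603 and 67333 in the EB, VC and DT lines. AXL, a receptor kinase, made up most of it (103309 in sensitive cells, at most 70843 in resistant lines), and SOX9 was 3994 in sensitive cells and 362 to 749 in resistant lines. The summed level of 5 fibroblast markers was 93.5 normalised counts in sensitive cells and 6604, 829 and 6988 in the EB, VC and DT lines. LUM, PDGFRB and COL1A1 carried it in the EB line, and mostly LUM in the DT line (6704.5, with PDGFRB at 115 and COL1A1 at 165). COL1A2 (at most 2.87) and DCN (at most 6.73) stayed near 0. The part of these genes in the results below was not tested. Summed leukocyte markers were at most 38.4, epithelial markers at most 7.37 and endothelial markers at most 281.

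The members spread over 23 chromosomes. Only 6 had a mean above 5000 normalised counts, 50 lay between 1000 and 5000, and 69 were under 1000. Together they took 0.411% ± 0.0224 (SD, n = 3) of the normalised counts in sensitive cells, 0.447% ± 0.00596 in the EB line, 0.444% ± 0.0139 in the VC line and 0.413% ± 0.0111 in the DT line. Per kilobase of exon, the members with the highest mean level were NORAD (3443 normalised counts per kb), SNHG29 (2610), GAS5 (1584), SNHG16 (1117) and SNHG32 (1066). The group with the highest level was EB-resistant for 44 members, VC-resistant for 28, sensitive for 27 and DT-resistant for 26. The ratio of the highest to the lowest group mean had a median of 1.95 over the members, against 1.54 over the 9054 protein-coding rows with a mean of at least 500. It was above 2 in 48.8% of members and in 22.7% of those protein-coding rows. The median level of the members was 867, close to the limit of 500, and 47 had a group mean under 500. Members that entered through a group where they are high can raise this share, and the ratio was not computed without them.

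Differences between groups were tested with the quasi-likelihood test of edgeR, with p values adjusted over the 17114 genes tested. Below, a member is said to rise or fall where its adjusted p was under 0.05, log2 fold changes carry a standard error, and single values are normalised counts in replicates 2, 5 and 6, in that order. In EB-resistant cells 50 members were higher and 38 lower than in sensitive cells, 70.4% of the members. Over all genes tested 56.1% were called in that comparison, 28.5% higher and 27.6% lower, and 64.1% over protein-coding rows with a mean of at least 500. In VC-resistant cells 55 were higher and 28 lower, 66.4% of the members against 55.0% of all genes (27.6% higher and 27.4% lower) and 63.0% of the protein-coding rows. In DT-resistant cells 49 were higher and 35 lower, 67.2% against 59.1% of all genes (29.8% higher and 29.3% lower) and 67.1% of the protein-coding rows. Differences of at least 2-fold were called for 18 higher and 8 lower members in the EB line, 20.8% of the members, against 21.2% of all genes and 11.2% of the protein-coding rows. For the VC line these were 15 and 7, 17.6% against 18.9% and 8.61%, and for the DT line 20 and 12, 25.6% against 22.0% and 11.4%. The median log2 fold change of the members was 0.07, 0.15 and 0.10. These 3 comparisons share the same sensitive libraries. Restricted to the 78 members with all group means at or above 500, 25 were higher and 23 lower in EB-resistant cells, 32 and 18 in VC-resistant cells, and 27 and 21 in DT-resistant cells. Differences of at least 2-fold were then called for 5 higher and 2 lower in the EB line, 5 and 3 in the VC line, and 4 and 3 in the DT line, so most of the 2-fold calls came from members with a group mean under 500. Of these 78, 61.5%, 64.1% and 61.5% were called in the EB, VC and DT lines. By at least 2-fold these shares were 8.97%, 10.3% and 8.97%. They lay near the shares of the protein-coding rows given above, which were not restricted in this way.

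Against sensitive, 24 members were higher in all 3 resistant lines, 11 were lower in all 3, 6 were called in none and 23 were called in opposite directions in different lines (19.2%, 8.8%, 4.8% and 18.4% of the members). Of all genes tested, 12.5% were higher in all 3, 12.1% lower in all 3, 18.5% called in none and 9.35% called in opposite directions. Over the protein-coding rows with a mean of at least 500 these shares were 14.5%, 15.5%, 10.7% and 11.5%. VC-resistant cells exceeded EB-resistant cells in 52 members and lay below them in 50, 81.6% of the members. This stood against 58.4% of all genes (28.8% higher and 29.6% lower) and 65.2% of the protein-coding rows. DT-resistant cells exceeded EB-resistant cells in 43 and lay below them in 47, 72.0% of the members. This stood against 57.2% of all genes (28.8% higher and 28.4% lower) and 64.1% of the protein-coding rows. At least 2-fold differences were called for 21 higher and 17 lower members in the former comparison (21.6% of all genes) and for 14 and 13 in the latter (20.9%). Of the protein-coding rows, 10.4% and 9.58% differed by at least 2-fold in these comparisons. Of the 78 members with all group means at or above 500, 78.2% and 65.4% were called in them, and 19.2% and 14.1% by at least 2-fold. Between the DT and VC lines, 9 were higher and 14 lower in DT-resistant cells, 18.4% of the members against 15.8% of all genes (8.71% higher and 7.08% lower) and 19.3% of the protein-coding rows. Same-numbered libraries of these lines deviated together, and with the replicate number as a block those counts were 15 and 25, 32.0% of the members against 20.5% of all genes (11.2% higher and 9.30% lower).

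**Figure D1:**
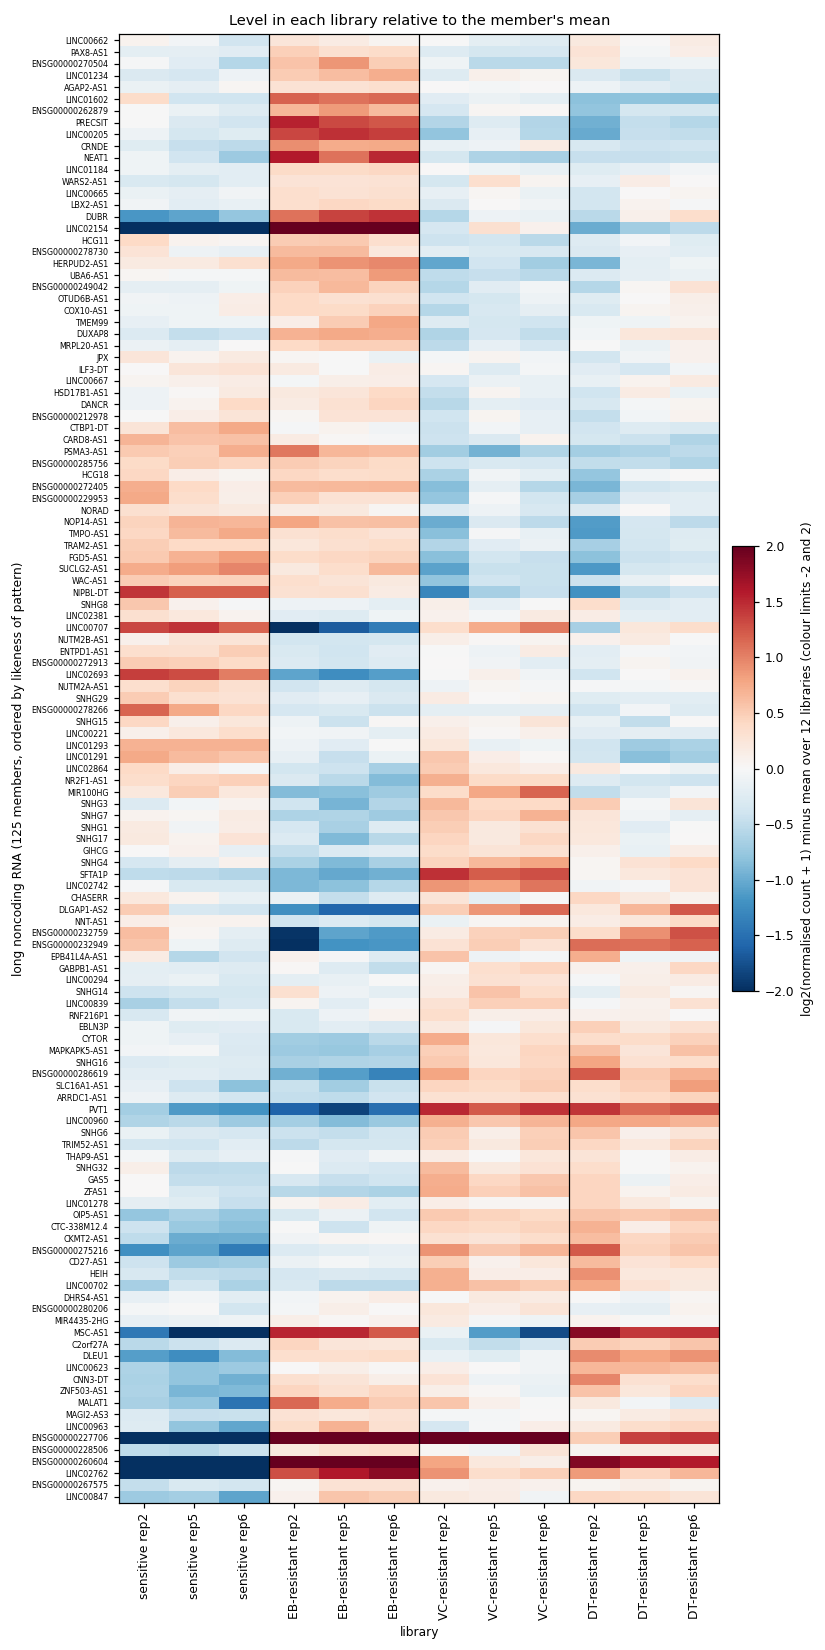
Each row is 1 of the 125 members and each column 1 of the 12 libraries; colour gives log2(normalised count + 1) minus the member's mean over the 12 libraries, limited to -2 and 2, with members ordered by likeness of pattern. VC-resistant and DT-resistant columns look alike for most rows, where 23 members were called between them (40 with the replicate block), whereas 102 were called between VC-resistant and EB-resistant cells.

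Host genes of snoRNAs formed the largest group with a shared role. These transcripts are spliced, their introns release snoRNAs that guide chemical modification of ribosomal RNA, and the exons left over are largely degraded in the cytoplasm by nonsense-mediated decay. Many of them begin like ribosomal protein mRNAs, with a C followed by a run of pyrimidines, the 5′ terminal oligopyrimidine (TOP) element through which translation is tied to mTOR signalling. Of the 16 members on this list, 15 hold an annotated snoRNA in GENCODE 29. A TOP-like run was searched on the transcribed strand as a C followed by at least 4 letters that are each C or T, beginning within 10 bases of the annotated start. A match could lie inside a longer run that begins further upstream. This is so for SNHG29 and SNHG7, where the stretch of C and T just before the match holds further Cs. In SNHG16, SNHG14 and ZFAS1 that stretch is T only, so no earlier C begins the run. A match was found in 37.4% of 27305 RefSeq promoters, in 90.3% of 62 ribosomal protein promoters and in 10 of the 14 host genes with a promoter entry (71.4%). The start regions of the 6 hosts with the highest means among these are shown, with the run in capitals, since they include windows with and without one. Each covers 30 bases before and 30 from the annotated start (RefSeq, GRCh38.p14).
SNHG29, chr17:16438957-16439016 (plus strand): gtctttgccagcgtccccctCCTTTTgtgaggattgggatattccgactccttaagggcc
GAS5, chr1:173869016-173869075 (minus strand): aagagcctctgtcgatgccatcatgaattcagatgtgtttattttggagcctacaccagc
SNHG16, chr17:76557734-76557793 (plus strand): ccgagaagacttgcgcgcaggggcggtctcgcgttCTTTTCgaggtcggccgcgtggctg
SNHG1, chr11:62855856-62855915 (minus strand): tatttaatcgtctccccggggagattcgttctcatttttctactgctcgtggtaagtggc
SNHG14, chr15:24823578-24823637 (plus strand): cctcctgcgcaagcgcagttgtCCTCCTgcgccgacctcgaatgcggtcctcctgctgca
ZFAS1, chr20:49278612-49278671 (plus strand): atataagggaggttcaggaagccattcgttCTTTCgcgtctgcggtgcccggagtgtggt
A run was also present in SNHG7, DANCR, SNHG32, SNHG17, SNHG4 and SNHG8, and absent from the windows of SNHG3 and EPB41L4A-AS1. No entry was used for SNHG6 and SNHG15. Hosts with a run did not all move alike. Of the 10 with one, 6 rose, 2 fell (SNHG29 and DANCR) and 2 were not called in VC-resistant cells, and of the 4 without one, 2 rose (GAS5 and SNHG3) and 2 were not called. In EB-resistant cells 6 of the 10 and 2 of the 4 fell. A match describes the letters only, and an annotated start can differ from the start used in these cells. The RefSeq windows of GAS5, SNHG14 and SNHG3 lie wholly outside the counted rows, which begin at chr1:173868882, chr15:24978583 and chr1:28505980. Whether the RNA counted for these hosts starts with or without a run is therefore open.

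The hosts were lowest as a list in EB-resistant and highest in VC-resistant cells. Against sensitive, 1 of 16 was higher and 9 were lower in EB-resistant cells, with a median log2 fold change of -0.37. In VC-resistant cells 9 were higher and 2 lower, with a median of 0.51. In DT-resistant cells 6 were higher and 2 lower, with a median of 0.35. The medians over all genes tested were between -0.01 and 0.01. Of all genes tested 27.6% were lower in EB-resistant cells, 27.6% were higher in VC-resistant cells and 29.8% were higher in DT-resistant cells. Compared directly, 12 hosts were higher and 1 lower in VC-resistant than in EB-resistant cells, where 28.8% of all genes were higher. The DT-resistant count depended on single libraries, with 3 hosts higher without sensitive replicate 5, 4 without sensitive replicate 6 or DT-resistant replicate 6, and 9 with the replicate block. The counts of 1 or 2 hosts called the other way against sensitive also moved, with 0 higher in EB-resistant cells without EB line replicate 2 or any 1 sensitive library, 1 lower in VC-resistant cells without VC line replicate 2 or sensitive replicate 6, and 4 and 1 lower in DT-resistant cells without DT line replicates 2 and 5, each left out in turn. The hosts' summed share of normalised counts was 0.122% ± 0.00993 (SD, n = 3) in sensitive cells, 0.0975% ± 0.00296 in the EB line, 0.138% ± 0.004 in the VC line and 0.115% ± 0.00806 in the DT line. SNHG29, which fell in all 3 lines, weighs most in this sum (mean 18726.5, with GAS5 next at 7668). The sum can therefore move apart from the counts of hosts called.

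SNHG29 (chr17:16438767-16478678, plus strand) had the highest mean of all members. It stood at 26213, 23005 and 22467 in sensitive cells, 15743, 16534 and 15157 in the EB line, 20593, 18599 and 18904 in the VC line and 15643, 15944 and 15916 in the DT line. Every resistant library lay below every sensitive one, and the EB-resistant and DT-resistant libraries overlapped. SNHG29 fell in EB-resistant (log2 fold change -0.61 ± 0.071, adjusted p = 3.33e-06), VC-resistant (log2 fold change -0.30 ± 0.071, adjusted p = 0.00197) and DT-resistant cells (log2 fold change -0.60 ± 0.071, adjusted p = 4.18e-06), and is the only host lower in all 3 lines. GAS5 (chr1:173858559-173868882, minus strand), named for its accumulation in growth-arrested cells, stood at 7343, 5285 and 5285 in sensitive cells, 5871, 5344 and 5549.8 in the EB line, 12095, 9825 and 10669 in the VC line and 9930.3, 6771 and 8049 in the DT line. Its EB-resistant values lay within the sensitive range, and its VC-resistant values were all above both. GAS5 rose in VC-resistant cells (log2 fold change 0.86 ± 0.15, adjusted p = 0.000292). In DT-resistant cells it rose by 0.46 ± 0.15 on the log2 scale (adjusted p = 0.0164), a call lost without DT line replicate 2 or sensitive replicate 5 or 6 (adjusted p from 0.0656 to 0.0793). SNHG16 (chr17:76557764-76565348, plus strand) stood at 4686, 4828 and 4759 in sensitive cells, 3629.8, 3762 and 3798 in the EB line, 8171, 6636 and 7576 in the VC line and 9778, 7037 and 7244 in the DT line. SNHG16 fell in EB-resistant cells (log2 fold change -0.36 ± 0.11, adjusted p = 0.00826) and rose in VC-resistant (log2 fold change 0.65 ± 0.11, adjusted p = 0.000105) and DT-resistant cells (log2 fold change 0.75 ± 0.11, adjusted p = 2.4e-05), so that its lowest group was EB-resistant and its highest DT-resistant.

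ZFAS1 (chr20:49278178-49299600, plus strand), which carries SNORD12 family snoRNAs, stood at 2468, 1992 and 1851 in sensitive cells, 1683, 1636 and 1592 in the EB line, 4110.3, 3432 and 3714 in the VC line and 3335, 2596 and 2752 in the DT line. Its EB-resistant values were the lowest and its VC-resistant values the highest of the 4 groups. The fall in EB-resistant cells (log2 fold change -0.37 ± 0.11, adjusted p = 0.0104) was lost without sensitive replicate 2 (adjusted p = 0.0621). ZFAS1 rose in VC-resistant (log2 fold change 0.83 ± 0.11, adjusted p = 1.87e-05) and DT-resistant cells (log2 fold change 0.45 ± 0.11, adjusted p = 0.00274). SNHG7 stood at 2299, 2234 and 2453 in sensitive cells, 1418, 1440.5 and 1324 in the EB line, 3164, 2942 and 3517 in the VC line and 2568, 2066 and 1922 in the DT line. SNHG7 fell in EB-resistant cells (log2 fold change -0.75 ± 0.1, adjusted p = 1.42e-05) and rose in VC-resistant cells (log2 fold change 0.46 ± 0.1, adjusted p = 0.00118), and the DT-resistant difference of -0.10 ± 0.1 was not called (adjusted p = 0.418). SNHG4 and SNHG3 also fell in EB-resistant cells (log2 fold changes -0.60 ± 0.13 and -0.55 ± 0.15) and rose in VC-resistant cells (0.77 ± 0.13 and 0.56 ± 0.15). The SNHG4 rise in DT-resistant cells (log2 fold change 0.38 ± 0.13, adjusted p = 0.0209) was lost without DT line replicate 5 or 6 or sensitive replicate 2 or 5 (adjusted p from 0.0563 to 0.0909). SNHG3 was 0.33 ± 0.15 there and not called (adjusted p = 0.0706).

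SNHG1, which holds a cluster of C/D box snoRNAs in its introns, stood at 3217, 2693 and 3159 in sensitive cells, 2239, 1804 and 2370.0 in the EB line, 4009, 3261 and 3507 in the VC line and 3301, 2425 and 2809.8 in the DT line. SNHG1 fell in EB-resistant cells (log2 fold change -0.51 ± 0.12, adjusted p = 0.00268) and was called in neither other line. SNHG17 did likewise (-0.74 ± 0.14 in EB-resistant cells, adjusted p = 0.000248). SNHG32 and SNHG6 rose in VC-resistant cells by 0.66 ± 0.18 and 0.63 ± 0.12 on the log2 scale, and SNHG6 also in DT-resistant cells by 0.56 ± 0.12. SNHG14, the long transcript of the Prader-Willi region that carries the SNORD115 and SNORD116 clusters, was the only host higher in all 3 lines (0.39 ± 0.14, 0.74 ± 0.14 and 0.38 ± 0.14). Its EB-resistant call was lost without EB line replicate 2 or sensitive replicate 2, 5 or 6 (adjusted p from 0.0531 to 0.14), and its DT-resistant call was lost without DT line replicate 5 or 6 or sensitive replicate 2, 5 or 6 (adjusted p from 0.0568 to 0.115). DANCR fell in VC-resistant cells (log2 fold change -0.46 ± 0.14, adjusted p = 0.0115), a call lost without VC line replicate 2 or sensitive replicate 6 (adjusted p from 0.0547 to 0.0771). SNHG15 fell in EB-resistant (-0.42 ± 0.14) and DT-resistant cells (-0.46 ± 0.14). The first call was lost without EB line replicate 5 or sensitive replicate 2 (adjusted p from 0.069 to 0.0928), and the second was lost without DT line replicate 5 (adjusted p = 0.0527). SNHG8 and EPB41L4A-AS1 were called against sensitive in no line, with log2 fold changes from -0.36 to -0.24 and from 0.16 to 0.47. EPB41L4A, the coding partner of the latter, was near silent, with group means from 0 to 22.1.

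**Figure D2:**
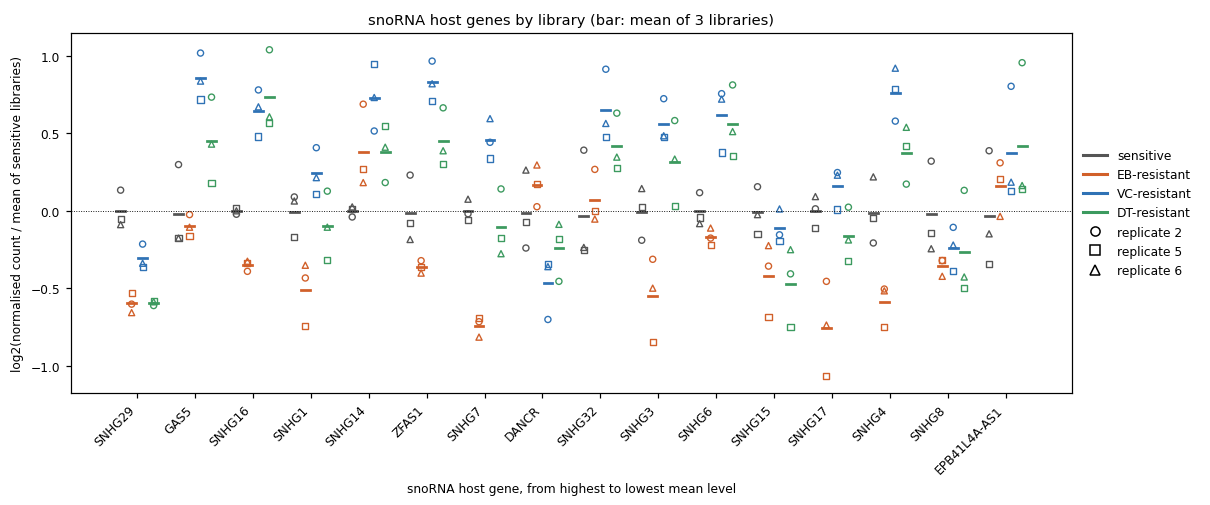
Points give, for each of the 16 snoRNA host genes (x axis) and each library, the log2 ratio of the normalised count to that host's mean over the sensitive libraries (y axis), coloured by group, with a bar at the mean of 3 libraries. The EB-resistant means of the 9 hosts that fell lie below 0, and the VC-resistant means of the 9 hosts that rose lie above it, while SNHG29 lies below 0 in all 3 resistant lines.

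Other genes of the machinery that makes ribosomes and snoRNAs were counted beside the hosts. Of 80 ribosomal protein genes, 23 were higher and 20 lower in EB-resistant cells (median log2 fold change 0.06), 56 higher and 4 lower in VC-resistant cells (0.34), and 43 higher and 9 lower in DT-resistant cells (0.18). For comparison, the shares of all genes tested were 28.5% higher and 27.6% lower in the EB line, 27.6% and 27.4% in the VC line, and 29.8% and 29.3% in the DT line, which apply to the next lists too. Between the last 2 lines, 0 were higher and 37 lower in DT-resistant cells, where 7.08% of all genes were lower, and 3 of the hosts were lower there, with 5 without DT line replicate 2 or sensitive replicate 2 and 9 under the replicate block. Ribosomal protein genes took 5.84%, 6.22%, 8.25% and 7.18% of the normalised counts in sensitive, EB-resistant, VC-resistant and DT-resistant cells. RPL32 alone accounted for 1.10% in VC-resistant and 1.08% in DT-resistant cells, against 0.0758% in sensitive and 0.0866% in EB-resistant cells. Without it the shares were 5.77%, 6.13%, 7.15% and 6.10%, so DT-resistant cells then lay beside EB-resistant cells. Of 16 other TOP mRNAs tested, such as those of elongation factors, 8 were higher and 5 lower in EB-resistant, 14 higher and 1 lower in VC-resistant, and 10 higher and 4 lower in DT-resistant cells. The 12 snoRNP proteins, which package snoRNAs, had 2 higher and 6 lower in the EB line, 3 and 6 in the VC line, and 2 and 7 in the DT line. Of 10 nonsense-mediated decay factors, 2 were higher in each line, and 3, 4 and 3 were lower.

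Among the transcripts that carry microRNAs, MIR100HG and MIR4435-2HG were on the list for that role. MIR100HG encodes miR-100, let-7a and miR-125b in its introns, and CYTOR and MIR4435-2HG are near copies on chromosome 2 that each hold a gene for the same mature microRNA. The mature sequences are printed (RefSeq, GRCh38.p14) because the host RNA was measured and the microRNAs were not. The seed, bases 2 to 8, is in capitals.
hsa-miR-100-5p: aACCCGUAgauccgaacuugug
hsa-let-7a-5p: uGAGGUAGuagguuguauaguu
hsa-miR-125b-5p: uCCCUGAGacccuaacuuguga
hsa-miR-4435: aUGGCCAGagcucacacagagg
The 4 seeds differ from each other.

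MIR100HG (chr11:122028325-122556721, minus strand) stood at 2504, 3026 and 2498 in sensitive cells, 1175, 1210.5 and 1319.8 in the EB line, 2769, 3691 and 4805 in the VC line and 1536, 1799.6 and 2078 in the DT line. EB-resistant libraries were the lowest, DT-resistant libraries lay between them and the sensitive ones, and VC-resistant libraries overlapped the sensitive range. MIR100HG fell in EB-resistant (log2 fold change -1.13 ± 0.17, adjusted p = 0.000116) and DT-resistant cells (log2 fold change -0.58 ± 0.17, adjusted p = 0.0116) and rose in VC-resistant cells (log2 fold change 0.49 ± 0.17, adjusted p = 0.0272), the only member called in opposite directions against sensitive in VC-resistant and DT-resistant cells. The VC-resistant rise was lost without VC line replicate 6 or sensitive replicate 2 or 6, or with only the compared groups in the fit (adjusted p from 0.0585 to 0.116), and the DT-resistant fall was lost without DT line replicate 2 or sensitive replicate 5 (adjusted p from 0.0508 to 0.0615). The direct difference between these lines was -1.07 ± 0.17 (adjusted p = 0.00111) and was kept under every alternative.

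CYTOR, a cytoplasmic RNA studied for its links to migration, stood at 1681, 1597 and 1473 in sensitive cells, 1097, 1083 and 1228 in the EB line, 2974, 2094 and 2242 in the VC line and 2282, 2311 and 2450.2 in the DT line. CYTOR fell in EB-resistant cells (log2 fold change -0.49 ± 0.11, adjusted p = 0.00153) and rose in VC-resistant (log2 fold change 0.62 ± 0.11, adjusted p = 0.000245) and DT-resistant cells (log2 fold change 0.56 ± 0.11, adjusted p = 0.000487). MIR4435-2HG varied least of all members, with a ratio of 1.15 between its highest and lowest group mean. Its EB-resistant difference of 0.19 ± 0.073 (adjusted p = 0.0402) was lost without DT line replicate 5, EB line replicate 2, 5 or 6, VC line replicate 5 or sensitive replicate 2, 5 or 6, or with no filter on low counts (adjusted p from 0.0523 to 0.102). Reads of CYTOR and MIR4435-2HG that fit both genes cannot be told apart, so both levels are uncertain.

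NORAD (chr20:36045618-36051018, minus strand) is a cytoplasmic RNA that is needed for stable chromosome segregation. It stood at 23071, 22039 and 21078 in sensitive cells, 20562, 20948 and 18803 in the EB line, 15132, 17180.0 and 14768 in the VC line and 15123, 18577 and 15863 in the DT line. Every resistant library lay below every sensitive one, with the highest EB-resistant value (20948) close to the lowest sensitive one (21078). NORAD fell in VC-resistant (log2 fold change -0.49 ± 0.087, adjusted p = 0.000211) and DT-resistant cells (log2 fold change -0.42 ± 0.087, adjusted p = 0.00063), and its EB-resistant difference of -0.15 ± 0.086 was not called (adjusted p = 0.166).

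The longest GENCODE transcript of HCG11 (5696 bases), a member chosen after its values were seen, is 93.8% identical to that of NORAD (5339 bases) over 5249 aligned bases. HCG11 stood at 1925, 1539 and 1499 in sensitive cells, 2080.5, 2100.2 and 1846 in the EB line, 1103, 1135 and 1010.0 in the VC line and 1223, 1414 and 1238 in the DT line. It fell in VC-resistant (log2 fold change -0.61 ± 0.11, adjusted p = 0.000179) and DT-resistant cells (log2 fold change -0.36 ± 0.11, adjusted p = 0.00775), and its rise in EB-resistant cells (log2 fold change 0.27 ± 0.1, adjusted p = 0.0398) was lost without EB line replicate 2 or 5 or sensitive replicate 5 or 6 (adjusted p from 0.0942 to 0.14). Of the 50-base windows of HCG11, 4.04% occur unchanged in NORAD, so part of the reads of these genes may be shared and the HCG11 level is uncertain.

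MALAT1 and NEAT1 are nuclear RNAs 52148 bases apart on chromosome 11. MALAT1 sits in nuclear speckles, which store splicing factors, and NEAT1 builds paraspeckles. MALAT1 stood at 3060.1, 2804 and 1728 in sensitive cells, 10601, 8003 and 6852 in the EB line, 7041, 5179 and 4763 in the VC line and 5492, 4626 and 3963 in the DT line. Replicate 2 was the highest of its group in all 4 groups, and all resistant libraries exceeded all sensitive ones. MALAT1 rose in EB-resistant (log2 fold change 1.73 ± 0.25, adjusted p = 0.000202) and VC-resistant cells (log2 fold change 1.16 ± 0.25, adjusted p = 0.00287). In DT-resistant cells the rise (log2 fold change 0.88 ± 0.25, adjusted p = 0.0114) was lost without DT line replicate 2 (adjusted p = 0.0568). NEAT1 stood at 1186, 968 and 761 in sensitive cells, 3816, 2675 and 3613 in the EB line, 995, 826 and 809.9 in the VC line and 922, 916 and 928 in the DT line. Its EB-resistant libraries were all above those of the other groups, which overlapped. NEAT1 rose in EB-resistant cells (log2 fold change 1.78 ± 0.16, adjusted p = 3.57e-07) and was not called in VC-resistant (-0.15 ± 0.16) or DT-resistant cells (-0.08 ± 0.16). It was lower in VC-resistant than in EB-resistant cells (log2 fold change -1.93 ± 0.16, adjusted p = 2.17e-07). Of 15 paraspeckle and speckle proteins, 1 was higher and 8 lower in EB-resistant cells, and 0 were higher and 12 lower in both other lines, where 27.6%, 27.4% and 29.3% of all genes were lower. NONO, a core paraspeckle protein, fell in all 3 lines (-0.58 ± 0.083, -0.52 ± 0.083 and -0.70 ± 0.083), while SFPQ, its partner, fell in VC-resistant (-1.12 ± 0.13) and DT-resistant cells (-1.38 ± 0.13) and was -0.18 ± 0.13 in EB-resistant cells.

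PVT1, the neighbour of MYC that can compete with it for enhancers, stood at 1061, 777 and 741 in sensitive cells, 558, 471 and 599.6 in the EB line, 4840.2, 4009 and 4633 in the VC line and 4614, 3740.2 and 4023 in the DT line. VC-resistant and DT-resistant libraries were far above the other groups, and EB-resistant libraries were the lowest. PVT1 fell in EB-resistant cells (log2 fold change -0.67 ± 0.14, adjusted p = 0.000761) and rose in VC-resistant (log2 fold change 2.38 ± 0.14, adjusted p = 8.84e-09) and DT-resistant cells (log2 fold change 2.25 ± 0.14, adjusted p = 1.11e-08). The direct difference from EB-resistant cells was 3.06 ± 0.14 in VC-resistant and 2.93 ± 0.14 in DT-resistant cells. MYC itself stood at 4277, 4966 and 3873 in sensitive cells, 1723, 1858 and 1694 in the EB line, 10079, 5773 and 4524 in the VC line and 7843, 5827 and 3924 in the DT line. MYC fell in EB-resistant cells (log2 fold change -1.33 ± 0.31, adjusted p = 0.0053), and its differences of 0.63 ± 0.31 in VC-resistant and 0.42 ± 0.31 in DT-resistant cells were not called.

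OIP5-AS1 (chr15:41283990-41309737, plus strand), also called cyrano, which directs the decay of miR-7, stood at 2173, 2349 and 2176 in sensitive cells, 3009, 3401 and 2844 in the EB line, 5307, 5031 and 4805 in the VC line and 5409.6, 5294 and 5553 in the DT line. No resistant library overlapped the sensitive ones. OIP5-AS1 rose in EB-resistant (log2 fold change 0.45 ± 0.074, adjusted p = 8.66e-05), VC-resistant (log2 fold change 1.18 ± 0.075, adjusted p = 1.1e-08) and DT-resistant cells (log2 fold change 1.27 ± 0.075, adjusted p = 3.79e-09). Its partner OIP5, a centromere protein, had log2 fold changes of -0.04 ± 0.16, -0.10 ± 0.16 and -0.12 ± 0.16 with adjusted p of 0.854, 0.624 and 0.555. FGD5-AS1 (chr3:14920347-14948424, minus strand), among the 8 members with the highest means, stood at 6649.6, 7554 and 8282 in sensitive cells, 6019.8, 6197 and 6357 in the EB line, 2612, 3588 and 3371 in the VC line and 2628, 3443 and 3577 in the DT line. It fell in VC-resistant (log2 fold change -1.23 ± 0.13, adjusted p = 3.8e-06) and DT-resistant cells (log2 fold change -1.23 ± 0.13, adjusted p = 3.05e-06) and was not called in EB-resistant cells (-0.29 ± 0.13, adjusted p = 0.073). NR2C2, a nuclear receptor gene whose start lies 840 bases away on the other strand, also fell, with log2 fold changes of -0.36 ± 0.076 and -0.49 ± 0.076. FGD5 was not analysed here.

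CRNDE, a transcript raised in several tumour types that lies beside IRX5, stood at 518, 445 and 428 in sensitive cells, 1172, 1034 and 1042 in the EB line, 557, 572 and 687 in the VC line and 489, 459.8 and 470.3 in the DT line. Its rise in EB-resistant cells (log2 fold change 1.21 ± 0.11, adjusted p = 3.35e-07) exceeded that in VC-resistant cells (log2 fold change 0.39 ± 0.11, adjusted p = 0.00978), which was lost without VC line replicate 6 (adjusted p = 0.0576), and the difference between the lines was -0.83 ± 0.11 (adjusted p = 1.6e-05). CHASERR, which lies upstream of CHD2, fell in EB-resistant cells (log2 fold change -0.34 ± 0.13, adjusted p = 0.0391), a call lost without EB line replicate 5 or 6 or sensitive replicate 2 or 5 (adjusted p from 0.084 to 0.17). JPX, an activator of the X-inactivation centre, fell in DT-resistant cells (log2 fold change -0.28 ± 0.11, adjusted p = 0.037), a call lost without DT line replicate 2 or 5, EB line replicate 5 or sensitive replicate 2 or 6, or with no filter on low counts, or with only the compared groups in the fit (adjusted p from 0.0525 to 0.202). Over the 9 members of the nuclear body, chromatin and scaffold list, 4 were higher and 3 lower in EB-resistant cells, 5 higher and 1 lower in VC-resistant cells, and 4 higher and 2 lower in DT-resistant cells. Over all genes tested, 28.5%, 27.6% and 29.8% were higher and 27.6%, 27.4% and 29.3% lower in these comparisons.

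**Figure D3:**
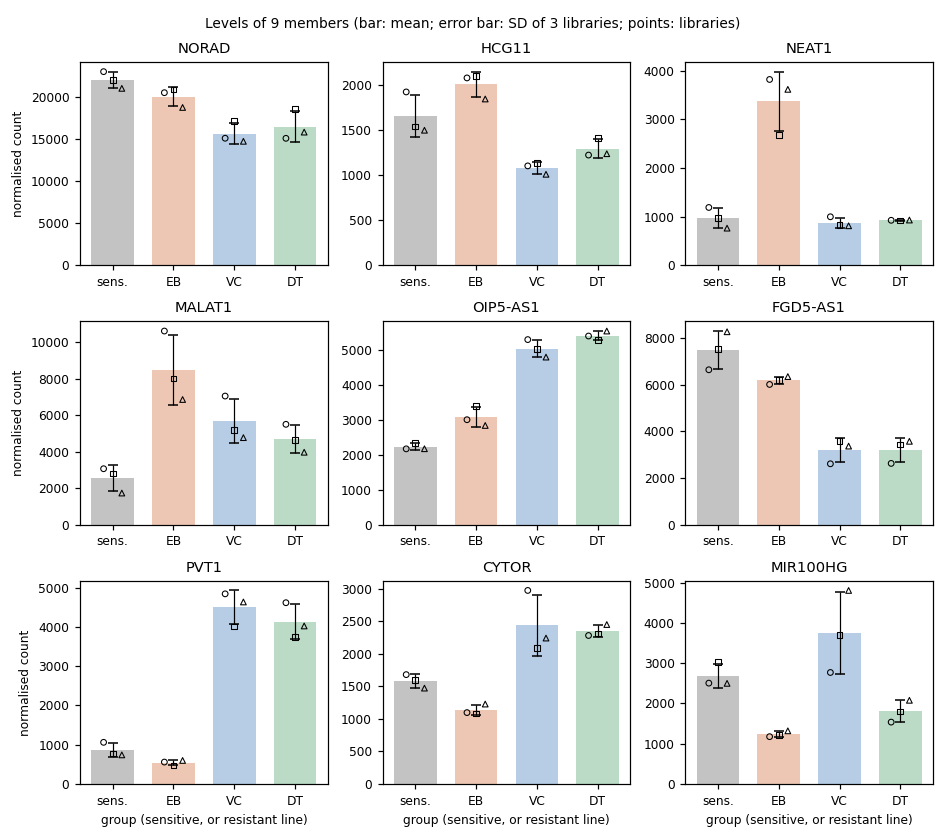
Normalised counts (y axis, linear) of 9 members in the 4 groups (x axis), with bars for the mean, error bars for the SD of 3 libraries and points for the libraries. NEAT1 is high only in the EB-resistant libraries (group means 3368 against 877 to 972), and PVT1 only in the VC-resistant and DT-resistant libraries (4494 and 4126 against 543 and 860).

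A few members were nearly silent in sensitive cells. ENSG00000227706 (chr6:67878316-67889339, minus strand) had 1, 2 and 0 reads in sensitive replicates 2, 5 and 6. It stood at 2040.0, 2159.8 and 2566 normalised counts in EB-resistant, 3073, 7547 and 8314 in VC-resistant and 512, 944 and 986 in DT-resistant libraries. From the 3 sensitive reads the ratio to sensitive was 2325 in EB-resistant (95% exact counting interval 795 to 11276), 6824 in VC-resistant (2335 to 33093) and 834 in DT-resistant cells (285 to 4048). These intervals cover counting error only. Without sensitive replicate 5 the ratios were 4505, 13223 and 1616, and without sensitive replicate 6 they were 1577, 4628 and 566. VC-resistant cells exceeded EB-resistant cells 2.83-fold (adjusted p = 0.00583), and DT-resistant cells lay below VC-resistant cells (log2 fold change -2.97 ± 0.39, adjusted p = 0.000864).

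ENSG00000260604 (chr6:3904920-3911979, minus strand) stood at 11, 7.3 and 24.1 in sensitive cells, 1748, 2185 and 2275 in the EB line, 591, 394 and 372 in the VC line and 1239, 1081 and 1026 in the DT line. It rose by 7.191 ± 0.29 in EB-resistant, 5.001 ± 0.3 in VC-resistant and 6.304 ± 0.29 on the log2 scale in DT-resistant cells, with adjusted p of 3.1e-10, 2.39e-08 and 1.71e-09. Without sensitive replicate 6 those values were 7.81, 5.63 and 6.92. LINC02154 (chrX:13266048-13303452, minus strand) stood at 10, 3.6 and 10 in sensitive cells, 1829.9, 2738 and 2561 in the EB line, 85.2, 134 and 114 in the VC line and 53.3, 66 and 74.5 in the DT line. Its rise in EB-resistant cells (log2 fold change 8.22 ± 0.28, adjusted p = 1.96e-11) was greater than in VC-resistant (log2 fold change 3.82 ± 0.32, adjusted p = 2.57e-07) and DT-resistant cells (log2 fold change 3.03 ± 0.35, adjusted p = 3.75e-06), and the direct difference of VC-resistant from EB-resistant cells was -4.40 ± 0.21 (adjusted p = 7.93e-10). It is 1 of the 2 members in which a single group reached a mean of 500. LINC02762 (chr11:112270749-112362534, plus strand) stood at 73.8, 63.9 and 48.2 in sensitive cells, 1039, 1294 and 1486 in the EB line, 796, 546 and 595 in the VC line and 767, 576 and 679 in the DT line. It rose in all 3 lines (4.35 ± 0.2, 3.37 ± 0.2 and 3.43 ± 0.2), more in EB-resistant than in VC-resistant cells (log2 fold change -0.97 ± 0.17, adjusted p = 0.000151).

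MSC-AS1, which starts beside the gene of the transcription factor musculin, stood at 184, 111 and 99.4 in sensitive cells, 1429.8, 1427 and 1175 in the EB line, 454, 229.9 and 144 in the VC line and 1763, 1338 and 1356 in the DT line. EB-resistant and DT-resistant libraries were high, and VC-resistant libraries lay nearer the sensitive ones. MSC-AS1 rose in EB-resistant (log2 fold change 3.34 ± 0.38, adjusted p = 3.11e-05) and DT-resistant cells (log2 fold change 3.49 ± 0.38, adjusted p = 2.5e-05). The VC-resistant rise (log2 fold change 1.04 ± 0.38, adjusted p = 0.0408) was lost without DT line replicate 2, 5 or 6, EB line replicate 5, VC line replicate 2 or 5 or sensitive replicate 5 or 6, or with no filter on low counts, or with only the compared groups in the fit (adjusted p from 0.0539 to 0.136). MSC itself stood at 33.9, 29.2 and 21.1 in sensitive cells, 787, 514 and 472 in the EB line, 149.6, 38.3 and 34.2 in the VC line and 774, 583 and 496 in the DT line, high and low in the same groups. Of the fibroblast markers given above, LUM was also higher in EB-resistant (2309) and DT-resistant cells (6704.5) than in sensitive (42.2) and VC-resistant cells (680). COL1A1 had a like order (832 and 165 against 15.0 and 27.8). PDGFRB was high in EB-resistant cells only (3453, against 115 in the DT and 120 in the VC line), and COL1A2 and DCN were near 0. The part of these genes here was not tested. With MSC-AS1, ENSG00000227706, ENSG00000260604, LINC02154 and LINC02762, 5 members were at least 2-fold higher in all 3 lines.

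ENSG00000275216 (chr13:109269634-109278512, plus strand) stood at 1308, 1481 and 1162 in sensitive cells, 2541, 2651 and 2726 in the EB line, 5736, 4475 and 4916 in the VC line and 7151, 4163 and 4492 in the DT line. ENSG00000275216 rose in EB-resistant (log2 fold change 0.99 ± 0.18, adjusted p = 0.000463), VC-resistant (log2 fold change 1.93 ± 0.18, adjusted p = 3.2e-06) and DT-resistant cells (log2 fold change 1.99 ± 0.18, adjusted p = 1.96e-06). DUBR stood at 292, 318 and 384 in sensitive cells, 1401, 1682 and 1784 in the EB line, 442, 616 and 601 in the VC line and 453, 703 and 840.5 in the DT line. All of its EB-resistant libraries exceeded all others, and it rose in EB-resistant (log2 fold change 2.28 ± 0.21, adjusted p = 7.39e-07), VC-resistant (0.74 ± 0.21) and DT-resistant cells (1.00 ± 0.21). DLEU1, in the chromosome 13 region often deleted in leukaemia, stood at 323, 294 and 379.6 in sensitive cells, 872, 879 and 897 in the EB line, 628, 588 and 658 in the VC line and 1332, 1202 and 1289.5 in the DT line. It rose in all 3 lines, most in DT-resistant cells (log2 fold change 1.93 ± 0.1, adjusted p = 1.48e-09), where it also exceeded VC-resistant cells (log2 fold change 1.02 ± 0.1, adjusted p = 6.51e-06).

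Among members lower in all 3 lines, LINC02693 (chr17:21428263-21574517, minus strand) stood at 4233, 4045 and 3329 in sensitive cells, 784, 689 and 756 in the EB line, 1618, 1751 and 1552 in the VC line and 1233, 1634 and 1717 in the DT line. No resistant library reached the sensitive range, and EB-resistant libraries were the lowest. LINC02693 fell in EB-resistant (log2 fold change -2.39 ± 0.13, adjusted p = 7.75e-10), VC-resistant (log2 fold change -1.24 ± 0.12, adjusted p = 8.84e-07) and DT-resistant cells (log2 fold change -1.35 ± 0.12, adjusted p = 2.8e-07). ENSG00000278266 fell by a like amount in each line (-1.18 ± 0.16, -1.01 ± 0.15 and -1.05 ± 0.16). NIPBL-DT, which starts beside the gene of the cohesin loader NIPBL, stood at 1128, 958 and 959 in sensitive cells, 516, 523 and 468 in the EB line, 169, 264 and 304 in the VC line and 179.6, 287 and 314 in the DT line. NIPBL-DT fell in EB-resistant (log2 fold change -1.03 ± 0.2, adjusted p = 0.000562), VC-resistant (log2 fold change -2.03 ± 0.21, adjusted p = 2.42e-06) and DT-resistant cells (log2 fold change -1.97 ± 0.21, adjusted p = 2.42e-06). NIPBL itself had smaller differences, -0.32 ± 0.077, -0.45 ± 0.077 and -0.13 ± 0.077, of which the first 2 were called. LINC01291 and LINC01293, 1840 bases apart on the same strand of chromosome 2, also fell in all 3 lines, with log2 fold changes of -0.91 ± 0.15 and -0.82 ± 0.11 in EB-resistant, -0.40 ± 0.15 and -0.69 ± 0.11 in VC-resistant and -1.28 ± 0.16 and -1.28 ± 0.12 in DT-resistant cells. The VC-resistant call of LINC01291 was lost without VC line replicate 5 or 6 or sensitive replicate 2 or 5 (adjusted p from 0.0725 to 0.159).

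**Figure D4:**
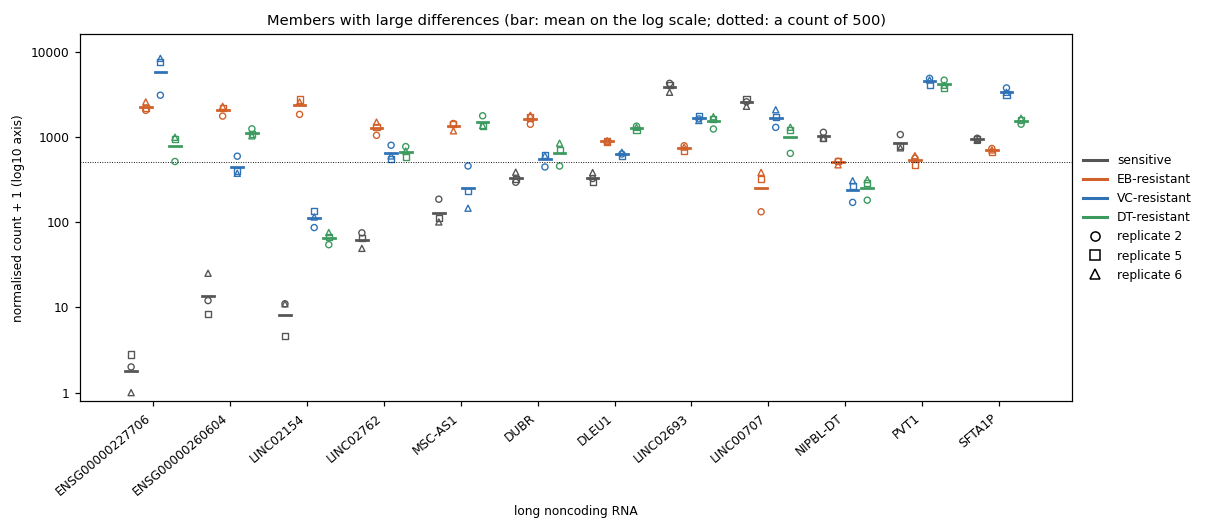
Normalised counts plus 1 (y axis, log10 scale) of 12 members with large differences (x axis), with points for the libraries and bars for the mean on the log scale, coloured by group. LINC02154, ENSG00000260604 and LINC02762 lie below all their resistant libraries in the sensitive ones (means of 7.87, 14.1 and 62.0), and LINC02693 lies above all of its resistant libraries there (3869).

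Opposite directions in different lines were called for 23 members, and EB-resistant cells stood against both other lines in 11 of these. In all of them the direct difference between the lines was called too, which opposite calls against the same sensitive libraries make nearly certain. DLGAP1-AS2 (chr18:3603000-3608336, plus strand) stood at 847, 474 and 456 in sensitive cells, 254, 197 and 197 in the EB line, 834, 1093 and 1302 in the VC line and 686, 942 and 1409.7 in the DT line. DLGAP1-AS2 fell in EB-resistant cells (log2 fold change -1.47 ± 0.32, adjusted p = 0.00239) and lay above sensitive in VC-resistant (log2 fold change 0.86 ± 0.3, adjusted p = 0.0313) and DT-resistant cells (log2 fold change 0.77 ± 0.3, adjusted p = 0.0484). The VC-resistant call was lost without VC line replicate 5 or 6 or sensitive replicate 5 or 6, or with no filter on low counts, or with the replicate block (adjusted p from 0.0555 to 0.111). The DT-resistant call was lost without DT line replicate 5 or 6, EB line replicate 2, 5 or 6, VC line replicate 2 or 5 or sensitive replicate 5 or 6, or with no filter on low counts, or with only the compared groups in the fit, or with the replicate block (adjusted p from 0.0518 to 0.194). The differences between lines were called under every alternative, 2.33 ± 0.32 for VC-resistant and 2.23 ± 0.32 for DT-resistant against EB-resistant cells. The coding gene DLGAP1 was near silent, with group means from 0 to 6.6.

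SFTA1P, a pseudogene transcript related to a surfactant-associated gene, stood at 959.9, 945 and 908 in sensitive cells, 728, 666 and 701 in the EB line, 3742, 3135 and 3322 in the VC line and 1405, 1579 and 1651 in the DT line. VC-resistant libraries were the highest, DT-resistant libraries came next, and EB-resistant libraries were the lowest. SFTA1P fell in EB-resistant cells (log2 fold change -0.44 ± 0.089, adjusted p = 0.000628) and rose in VC-resistant (log2 fold change 1.86 ± 0.089, adjusted p = 6.38e-10) and DT-resistant cells (log2 fold change 0.71 ± 0.088, adjusted p = 6.2e-06). PRECSIT stood at 672, 550.2 and 517 in sensitive cells, 1967, 1673 and 1588 in the EB line, 450.1, 565 and 447 in the VC line and 344, 484 and 451 in the DT line. PRECSIT rose in EB-resistant cells (log2 fold change 1.58 ± 0.15, adjusted p = 3.13e-07), was not called in VC-resistant cells (-0.25 ± 0.15) and fell in DT-resistant cells (log2 fold change -0.45 ± 0.15, adjusted p = 0.017), a call lost without DT line replicate 2 or sensitive replicate 2 (adjusted p from 0.0812 to 0.0838). LINC00205 had the same order, 1.62 ± 0.16 in the EB line, -0.25 ± 0.16 in the VC line and -0.41 ± 0.16 in the DT line. The last of these calls was lost without DT line replicate 2, EB line replicate 2, 5 or 6 or sensitive replicate 2 or 6, or with only the compared groups in the fit (adjusted p from 0.0547 to 0.187). POFUT2, which adds fucose to proteins and lies beside LINC00205, rose in all 3 lines (1.35 ± 0.093, 1.03 ± 0.093 and 1.31 ± 0.093). LINC01602 rose in EB-resistant (1.23 ± 0.16) and fell in DT-resistant cells (-0.72 ± 0.17).

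LINC00707 (chr10:6779549-6879450, plus strand) stood at 2569, 2749 and 2279.5 in sensitive cells, 131, 318 and 382 in the EB line, 1288, 1692 and 2076 in the VC line and 638, 1189.6 and 1295 in the DT line. Its EB-resistant libraries were below all others. LINC00707 fell in EB-resistant (log2 fold change -3.21 ± 0.4, adjusted p = 8.51e-05) and DT-resistant cells (log2 fold change -1.29 ± 0.36, adjusted p = 0.0123), and the VC-resistant difference of -0.59 ± 0.36 was not called (adjusted p = 0.195). ENSG00000232759 and ENSG00000232949 lie 15702 bases apart on the same strand of chromosome 7. Each overlaps STEAP1B on the other strand, so their counts may include its reads. Both fell in EB-resistant cells (-1.54 ± 0.31 and -1.60 ± 0.27). In DT-resistant cells they were 0.70 ± 0.3 (not called) and 1.00 ± 0.25 (adjusted p = 0.00485), and both exceeded EB-resistant cells there (2.24 ± 0.31 and 2.61 ± 0.27).

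Between DT-resistant and VC-resistant cells, MSC-AS1 (log2 fold change 2.44 ± 0.36, adjusted p = 0.00125), ENSG00000260604 (log2 fold change 1.30 ± 0.2, adjusted p = 0.000531) and DLEU1 (given above) were the members at least 2-fold higher in DT-resistant cells. ENSG00000227706, SFTA1P (log2 fold change -1.14 ± 0.087, adjusted p = 6.5e-07) and MIR100HG were at least 2-fold lower. Over all genes tested, 4.63% differed by at least 2-fold there. Values in this paragraph come from the model without the replicate block, although the libraries of these lines are taken as paired. With the block, 40 members and not 23 were called between them. C2orf27A stood at 394, 424 and 472 in sensitive cells, 769, 677 and 672 in the EB line, 464, 408 and 452 in the VC line and 815, 782 and 838 in the DT line. Its EB-resistant and DT-resistant libraries were high, and it exceeded VC-resistant cells in DT-resistant cells (log2 fold change 0.87 ± 0.11, adjusted p = 4.37e-05). Smaller falls in DT-resistant cells were called for the snoRNA hosts SNHG7 (log2 fold change -0.56 ± 0.1, adjusted p = 0.00131), SNHG29 (log2 fold change -0.30 ± 0.071, adjusted p = 0.00958) and ZFAS1 (log2 fold change -0.38 ± 0.11, adjusted p = 0.0297), the last of them lost without DT line replicate 5 or 6 or VC line replicate 2 or 6 (adjusted p from 0.0764 to 0.127). CRNDE (-0.36 ± 0.11) and LINC02154 (-0.80 ± 0.23) were also lower. The CRNDE call was lost without DT line replicate 2, 5 or 6, EB line replicate 5 or 6, VC line replicate 5 or 6 or sensitive replicate 5, or with no filter on low counts, or with only the compared groups in the fit (adjusted p from 0.053 to 0.213). The LINC02154 call was lost without DT line replicate 2 or 5 or VC line replicate 5 or 6, or with only the compared groups in the fit (adjusted p from 0.061 to 0.114).

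By position in the deposited gene table, 40 members start within 1000 bases of a protein-coding row on the other strand, and 61 overlap such a row. Together these are 71 of the members, while 17 lie more than 100 kb from the nearest protein-coding row. Coding genes without a row in the table, such as FGD5, were not counted, so a nearer gene can exist. The library kit marks strand, but the strand setting of the counting is not given, so reads of overlapping genes cannot be told apart. Among 39 divergent pairs tested on both sides, both genes were called in EB-resistant cells in 17 pairs, 14 in the same direction and 3 in opposite directions. In VC-resistant cells both were called in 15 pairs, 14 alike and 1 opposite, and in DT-resistant cells in 15 pairs, 12 alike and 3 opposite. Across the pairs, Pearson's r between the log2 fold changes was 0.54 in the EB line, 0.28 in the VC line and 0.37 in the DT line. Between lines, both were called in 17 pairs for VC-resistant against EB-resistant cells (13 alike and 4 opposite, r = 0.17), in 18 for DT-resistant against EB-resistant cells (12 alike and 6 opposite, r = 0.26) and in 1 for DT-resistant against VC-resistant cells (0 alike and 1 opposite, r = 0.17). These values describe 39 pairs that share libraries. The median absolute log2 fold change was 0.49 for the members and 0.32 for their partners in EB-resistant cells, 0.50 and 0.33 in VC-resistant, and 0.46 and 0.30 in DT-resistant cells.

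**Figure D5:**
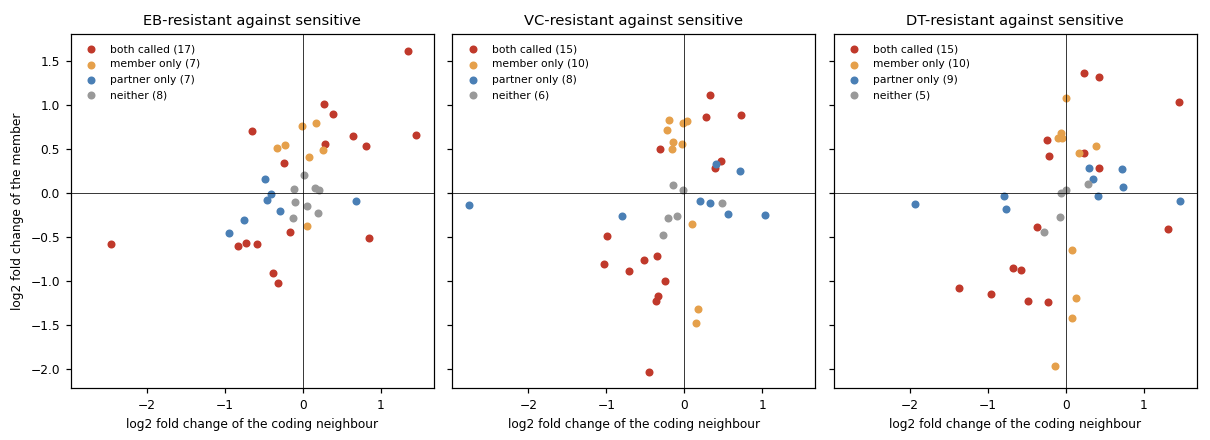
Log2 fold change against sensitive of each member (y axis) and of the protein-coding gene that starts within 1000 bases on the other strand (x axis), for 39 pairs in each of the 3 resistant lines, coloured by which of the pair was called. Most pairs called on both sides lie in the quadrants of equal sign (14 of 17, 14 of 15 and 12 of 15).

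Of the 42 members named as antisense, divergent or intronic transcripts, 16 were higher and 10 lower in EB-resistant cells, 15 higher and 15 lower in VC-resistant cells and 15 higher and 15 lower in DT-resistant cells. All genes tested were 28.5%, 27.6% and 29.8% higher and 27.6%, 27.4% and 29.3% lower in these comparisons. Several fell in VC-resistant and DT-resistant cells but were not called in EB-resistant cells. SUCLG2-AS1 stood at 1430.4, 1528 and 1681 in sensitive cells, 978, 1084 and 1337 in the EB line, 405, 628 and 625 in the VC line and 383, 666 and 688 in the DT line. It fell in VC-resistant (log2 fold change -1.48 ± 0.22, adjusted p = 0.000113) and DT-resistant cells (log2 fold change -1.42 ± 0.22, adjusted p = 0.000128), with -0.46 ± 0.21 in EB-resistant cells (adjusted p = 0.0856). Its partner SUCLG2, a subunit of succinyl-CoA ligase, was at -0.94 ± 0.068, 0.15 ± 0.067 and 0.08 ± 0.067, with adjusted p of 2.16e-08, 0.0649 and 0.344. PSMA3-AS1 fell in VC-resistant (-1.32 ± 0.14) and DT-resistant cells (-1.20 ± 0.14), and PSMA3, a proteasome subunit, was at 0.01 ± 0.077 and 0.01 ± 0.077 (adjusted p = 0.907 and 0.917). NOP14-AS1 fell there too (-1.17 ± 0.19 and -1.24 ± 0.19), and NOP14, a ribosome biogenesis factor, was at -0.56 ± 0.075 and -0.61 ± 0.075 (adjusted p = 1.75e-05 and 5.91e-06).

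The 25 members with LINC numbers had 12 higher and 8 lower in EB-resistant cells, 11 higher and 4 lower in VC-resistant cells, and 10 higher and 7 lower in DT-resistant cells. Without sensitive replicate 5, 2 and not 4 were lower in VC-resistant cells. Of these members, 7 were higher and 3 lower in all 3 lines, against 12.5% and 12.1% of all genes. Among 20 members with clone or Ensembl names, 10, 8 and 8 were higher and 5, 5 and 6 lower in EB-resistant, VC-resistant and DT-resistant cells. In the 13 members with other symbols, 7 were higher in each line and 2, 1 and 2 were lower. The shares over all genes were 28.5%, 27.6% and 29.8% higher and 27.6%, 27.4% and 29.3% lower.

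The members that varied least were MIR4435-2HG, DHRS4-AS1, JPX, THAP9-AS1 and LINC00667, with ratios of the highest to the lowest group mean of 1.15, 1.20, 1.21, 1.22 and 1.23. THAP9-AS1 stood at 2559, 2194 and 2349 in sensitive cells, 2574, 2248 and 2500.4 in the EB line, 2902, 2642 and 3073 in the VC line and 3142, 2606 and 2904 in the DT line. The coding partner THAP9 was at 0.21 ± 0.14, 0.39 ± 0.14 and 0.43 ± 0.14 on the log2 scale. The small rises of THAP9-AS1 in VC-resistant (log2 fold change 0.28 ± 0.091, adjusted p = 0.017) and DT-resistant cells (log2 fold change 0.28 ± 0.091, adjusted p = 0.0159) were called. The first was lost without VC line replicate 6 or sensitive replicate 5 (adjusted p from 0.0714 to 0.0772), and the second was lost without DT line replicate 2 or sensitive replicate 5 (adjusted p from 0.061 to 0.0769). DHRS4-AS1, whose partner DHRS4 was at -0.18 ± 0.1 there (adjusted p = 0.166), rose in VC-resistant cells (log2 fold change 0.26 ± 0.095, adjusted p = 0.0289), a call lost without VC line replicate 5 or 6 or sensitive replicate 2 or 6 (adjusted p from 0.0592 to 0.0883). LINC00667 fell in VC-resistant cells (log2 fold change -0.29 ± 0.099, adjusted p = 0.0205), a call lost without VC line replicate 2 or sensitive replicate 5 or 6 (adjusted p from 0.0589 to 0.102). Of the members at the limit of the rule, GIHCG was lower in EB-resistant (-0.31 ± 0.12) and higher in VC-resistant cells (0.33 ± 0.12). The EB-resistant call of GIHCG was lost without EB line replicate 2 or 5 or sensitive replicate 2 or 5, or with no filter on low counts (adjusted p from 0.0505 to 0.16), and its VC-resistant call was lost without VC line replicate 2 or sensitive replicate 6 (adjusted p from 0.0558 to 0.0874). CTC-338M12.4, which overlaps TRIM52-AS1 on the same strand, rose in VC-resistant (1.07 ± 0.16) and DT-resistant cells (1.08 ± 0.16). Its rise in EB-resistant cells (log2 fold change 0.48 ± 0.16, adjusted p = 0.0159) was lost without EB line replicate 2 or sensitive replicate 5 or 6 (adjusted p from 0.057 to 0.0606). NUTM2A-AS1 and NUTM2B-AS1, DUXAP8, LINC00623, RNF216P1, SFTA1P and EBLN3P have near copies elsewhere in the genome. Reads that fit several copies make their counts uncertain.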

How the data were processed

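Counts of reads per gene and the matching normalised counts were deposited by the authors for all 12 libraries. Per the labels' protocols, polyadenylated RNA was made into strand-specific libraries and sequenced as paired ends. Per the submitters' processing notes, bcl2fastq 2.20.0, STAR 2.7.10b, featureCounts 2.0.1, DESeq2 1.38.3 and hg38 were used. Which strand setting and annotation release the counting used is not given in the sources. The deposited normalised counts (a signal scaled by size factors) chose the members and are the levels given. All columns were matched to samples.

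From the deposited counts, genes were kept by filterByExpr, scaled by TMM and tested over all 12 libraries in 1 quasi-likelihood model (edgeR 4.0.16, R 4.3.3, 8 residual degrees of freedom), with Benjamini-Hochberg adjustment over 17114 genes and a threshold of 0.05. The script was tested on simulated counts with the same spread for every gene, so the wider scatter of some members was not covered. Library totals (40491309 to 54495132 counts) set the counting precision. An exact permutation test of 3 against 3 libraries cannot go below 0.1 and was not used. Alternatives were DESeq2 size factors, the DESeq2 1.42.0 Wald test, no filter, only the groups compared, a replicate block, and each library left out. Deviations of same-numbered VC-resistant and DT-resistant libraries from their group means correlated at 0.337, 0.151 and 0.195, all above 0.1. The libraries of these lines are therefore taken as paired by replicate number, and the counts of called members are also given with the block. Values of single members between these lines come from the model without it. No other pair of groups met that limit in all 3 pairs of libraries.

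Members given in full are the 8 highest means, the 6 highest and 6 lowest called changes against sensitive (4 and 4 between lines), members called alike by at least 2-fold in all lines or opposite by 2-fold, the snoRNA host, microRNA host and nuclear body lists, the 5 least varying, and those nearest the limit. HCG11 was added after its values were seen. The members and lists were chosen with earlier results of these data known. Positions and transcripts come from the table and GENCODE 29, promoters and microRNAs from RefSeq. Figures were drawn with matplotlib 3.10.9.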

Additional observations from a re-analysis of the deposited data

Results flagged for a closer look

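Differences between resistant lines are given where a member was called against sensitive in opposite directions and the test of the difference itself (edgeR quasi-likelihood, adjusted over all genes tested) reached at least 2 on the log2 scale. No explanation is given for them. PVT1 moved by -0.67 in EB-resistant cells but by 2.38 in VC-resistant and 2.25 in DT-resistant cells, so the lines differed by 3.06 (adjusted p = 9.93e-10) and 2.93 (adjusted p = 1.41e-09). SFTA1P differed by 2.29 between VC-resistant and EB-resistant cells (adjusted p = 8.12e-11). For ENSG00000232949 the DT-resistant line stood 2.61 above the EB-resistant line (adjusted p = 7.32e-06). DLGAP1-AS2 differed from EB-resistant cells by 2.33 in VC-resistant cells (adjusted p = 9.63e-05) and by 2.23 in DT-resistant cells (adjusted p = 0.000141). Its calls against sensitive in these 2 lines were lost under several alternatives, as given above. PRECSIT and LINC00205 went the other way, with DT-resistant against EB-resistant differences of -2.03 each (adjusted p = 4.31e-08 and 1.07e-07). Their DT-resistant falls from sensitive were also lost under some alternatives.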

How the results depend on the processing

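Of 235 calls on 58 members given in full, 191 were kept under all alternatives, 44 were lost under at least 1 of them, 31 of these only when a library was left out, and 0 reversed. Counts over all 125 members moved by over 1.5 times only between DT-resistant and VC-resistant cells, with 15 higher and 25 lower under the replicate block and 14 higher by the DESeq2 Wald test, against 9 and 14. The cause was not tested. The block moved no count over all members by over 1.5 times in the other 5 comparisons. Within the lists, counts of 6 or fewer also moved by over 1.5 times under some alternatives. Depth limited ENSG00000227706, whose ratios rest on 3 sensitive reads.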
